A study of Mus musculus with 4 samples.

Results

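Neutrophil granule and maturation genes are a set of 34 named genes, of the 32285 genes counted in single cells, whose products fill the granules of neutrophils or mark the steps by which these cells mature. They were taken by name from a list drawn up with earlier results of these data known, with no cut on a measured value. The list holds 6 primary granule genes (Elane, Mpo, Prtn3, Ctsg, Ms4a3 and Ctsc), 2 transcription factors (Gfi1 and Cebpe), 16 genes of secondary granules and the immature stage (Fcnb, Chil3, Ngp, Camp, Ltf, Lcn2, Cybb, Cd177, Ly6g, Olfm4, Mmp8, Hp, Lyz2, Wfdc21, Pglyrp1 and Orm1) and 10 genes of tertiary granules and the mature stage (Mmp9, Mmp25, S100a8, S100a9, Anxa1, Adam8, Itgam, Retnlg, Slpi and Padi4). All 34 had unique molecular identifiers (UMIs, each a counted RNA molecule) in each of the 4 libraries.

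The libraries came from mice with an injury of the growth plate at the distal femur, 7 days after that injury. A 1NMPP1 and a vehicle library of dorsal root ganglia (DRG) of lumbar levels, where sensory neurons have their cell bodies, stood beside a 1NMPP1 and a vehicle library of the growth plate with its surrounding tissue. In all 4 groups the mice carried a change in a receptor kinase of sensory neurons that lets the compound 1NMPP1 inhibit it. Treated mice had 17 µg 1NMPP1 per g body weight by intraperitoneal injection 48 h and 2 h before surgery, from a 5 mM solution, and then 40 µM in their drinking water, whereas vehicle mice had DMSO. There was 1 library per group, and the labels do not say how many animals each holds, so there is neither a test nor a check over replicates for any difference below. Intervals are 95% intervals that cover counting error only.

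A neutrophil makes its kinds of granules in sequence while it matures. Primary (azurophil) granules carry serine proteases and myeloperoxidase and are filled at the promyelocyte stage, secondary (specific) granules carry lactoferrin and the cathelicidin and are filled in myelocytes, and tertiary (gelatinase) granules are filled last, in band cells. Each protein goes into the granule that is being made when its gene is transcribed, a model known as targeting by timing.

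The DRG libraries held 2612 barcodes and 32790205 UMIs with 1NMPP1 and 3675 barcodes and 57303037 UMIs with vehicle, and the growth plate libraries held 11807 barcodes and 139703885 UMIs with 1NMPP1 and 9560 barcodes and 102692919 UMIs with vehicle. Neutrophil lineage cells, named from markers that are not among the 34 genes, were 22.5% (483 cells) and 13.3% (376 cells) of kept cells in the 1NMPP1 and vehicle DRG libraries, and 57.9% (6092 cells) and 55.6% (4808 cells) in the 1NMPP1 and vehicle growth plate libraries. Between 4 and 40 barcodes were shared by each pair of libraries, at most 0.418% of the smaller one. The libraries differed in the cells called male from Y-linked genes, at 16.6% and 48.7% of lineage cells in 1NMPP1 and vehicle DRG and 22.6% and 46.6% in 1NMPP1 and vehicle growth plate. Female-called cells were 24.6% and 10.9% in 1NMPP1 and vehicle DRG and 27.2% and 9.86% in 1NMPP1 and vehicle growth plate. Counts within male-called and female-called cells are given for each comparison over the whole lineage.

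Promoters of 29 members were found in the RefSeq table for GRCm38.p6, each 300 bases long with 250 before and 50 after the gene's start. Cebpe, Mmp9, Hp, Wfdc21 and Orm1 are named only. The sequences below are shown because primary and later granule genes are those whose stage profiles differ most. All are written 5′ to 3′ on the gene's strand. Capitals mark TTNNGNAA (C/EBP type), GAGGAA (PU.1 type) and TGTGGT (RUNX type), each searched on both strands.

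Of the primary granule genes, Elane encodes neutrophil elastase, Prtn3 proteinase 3, Mpo myeloperoxidase and Ctsg cathepsin G.
Elane, chr10:79886062-79886361, plus strand: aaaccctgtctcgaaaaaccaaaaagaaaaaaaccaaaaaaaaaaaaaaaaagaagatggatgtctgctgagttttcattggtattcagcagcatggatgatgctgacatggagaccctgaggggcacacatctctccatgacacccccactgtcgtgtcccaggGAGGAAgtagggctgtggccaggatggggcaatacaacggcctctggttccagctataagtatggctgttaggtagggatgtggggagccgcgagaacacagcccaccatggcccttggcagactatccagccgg
Prtn3, chr10:79879417-79879716, plus strand: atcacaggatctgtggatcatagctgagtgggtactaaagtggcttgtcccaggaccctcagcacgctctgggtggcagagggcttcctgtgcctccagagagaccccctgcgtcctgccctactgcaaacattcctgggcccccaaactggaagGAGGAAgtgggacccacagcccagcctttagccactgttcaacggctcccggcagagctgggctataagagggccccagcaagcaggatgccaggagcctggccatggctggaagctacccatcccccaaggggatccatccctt
Mpo, chr11:87793534-87793833, plus strand: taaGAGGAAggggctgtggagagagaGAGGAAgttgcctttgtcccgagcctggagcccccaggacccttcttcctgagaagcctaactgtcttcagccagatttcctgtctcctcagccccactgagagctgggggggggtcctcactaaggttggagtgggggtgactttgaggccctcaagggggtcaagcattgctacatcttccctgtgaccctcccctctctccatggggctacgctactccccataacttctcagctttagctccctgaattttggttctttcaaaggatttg
Ctsg, chr14:56102525-56102824, minus strand: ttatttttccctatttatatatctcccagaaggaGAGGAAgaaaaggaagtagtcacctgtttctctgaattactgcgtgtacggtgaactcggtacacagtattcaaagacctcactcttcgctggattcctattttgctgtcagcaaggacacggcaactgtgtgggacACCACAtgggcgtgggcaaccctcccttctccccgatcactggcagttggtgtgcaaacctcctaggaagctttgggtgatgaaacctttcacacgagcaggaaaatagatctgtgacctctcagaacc

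Of the later genes, Ngp encodes neutrophilic granule protein, Ltf lactoferrin, Lcn2 the siderophore-binding lipocalin 2 and Retnlg a resistin-like secreted protein.
Ngp, chr9:110419558-110419857, plus strand: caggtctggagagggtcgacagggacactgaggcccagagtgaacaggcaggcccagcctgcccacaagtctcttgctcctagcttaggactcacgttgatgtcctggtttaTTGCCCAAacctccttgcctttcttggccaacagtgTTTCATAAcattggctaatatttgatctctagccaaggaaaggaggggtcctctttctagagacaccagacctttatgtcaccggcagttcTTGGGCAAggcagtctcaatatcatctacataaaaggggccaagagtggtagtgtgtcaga
Ltf, chr9:111019042-111019341, plus strand: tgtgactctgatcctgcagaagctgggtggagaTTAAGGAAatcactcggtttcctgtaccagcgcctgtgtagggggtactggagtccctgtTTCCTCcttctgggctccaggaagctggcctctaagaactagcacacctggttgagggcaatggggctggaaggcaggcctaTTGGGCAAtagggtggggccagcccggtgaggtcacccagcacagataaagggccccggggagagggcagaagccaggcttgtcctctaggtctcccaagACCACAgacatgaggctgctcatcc
Lcn2, chr2:32387690-32387989, minus strand: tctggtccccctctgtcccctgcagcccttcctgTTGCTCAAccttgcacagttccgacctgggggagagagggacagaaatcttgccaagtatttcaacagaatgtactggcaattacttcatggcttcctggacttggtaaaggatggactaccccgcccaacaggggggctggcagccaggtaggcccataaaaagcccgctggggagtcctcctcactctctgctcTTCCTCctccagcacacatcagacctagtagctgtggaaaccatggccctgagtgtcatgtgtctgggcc
Retnlg, chr16:48872358-48872657, plus strand: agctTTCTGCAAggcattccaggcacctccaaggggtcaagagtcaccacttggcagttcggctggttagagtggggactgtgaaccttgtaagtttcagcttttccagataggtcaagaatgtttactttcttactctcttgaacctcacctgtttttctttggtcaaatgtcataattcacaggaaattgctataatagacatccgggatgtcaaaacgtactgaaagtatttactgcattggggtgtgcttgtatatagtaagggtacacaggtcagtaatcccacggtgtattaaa

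The GAGGAA motif was in 6 of 6 primary granule promoters searched, in 8 of 13 of the secondary group and in 4 of 9 of the tertiary group, against 28.3% of 32851 promoters. The TTNNGNAA motif was in 1 of 6 primary granule promoters, that of Ms4a3, in 10 of 13 of the secondary group and in 7 of 9 of the tertiary group, against 40.7% of all promoters. The TGTGGT motif was in 5 of 29 member promoters (17.2%), against 16.8% of all. Matches of different motifs overlapped in the promoter of Itgam and in no other member promoter. A match is a run of letters, not a site known to be bound. Prtn3 and Elane are neighbours on chromosome 10 with 3.138 kb and 0 protein-coding genes between them, and S100a8 and S100a9 are neighbours on chromosome 3 with 22.6 kb and 0 genes between them. Camp, Ngp and Ltf lie in a row on chromosome 9, with 570 kb and 8 genes between Camp and Ngp and 596 kb and 20 genes between Ngp and Ltf.

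Most members were found mainly in the neutrophil lineage. In all 4 libraries, 17 of 34 members had at least 90% of their UMIs in lineage cells and 31 had at least 50%. S100a8, a subunit of the calcium-binding protein calprotectin, had 98.4% and 97.0% of its UMIs there in 1NMPP1 and vehicle DRG and 97.7% and 96.9% in 1NMPP1 and vehicle growth plate. The exceptions were Ctsc, Gfi1 and Mmp25. Ctsc, which encodes the protease that activates the granule serine proteases, had 1.24% and 1.09% of its UMIs in the lineage in 1NMPP1 and vehicle DRG and 3.80% and 4.15% in 1NMPP1 and vehicle growth plate. Its level in monocytes was 786 and 617 counts-per-million (CPM, scaled to those cells' UMIs) in 1NMPP1 and vehicle DRG, and 797 and 772 CPM in 1NMPP1 and vehicle growth plate. Nearly all Ctsc UMIs were thus outside the lineage in each library.

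**Figure D1:**
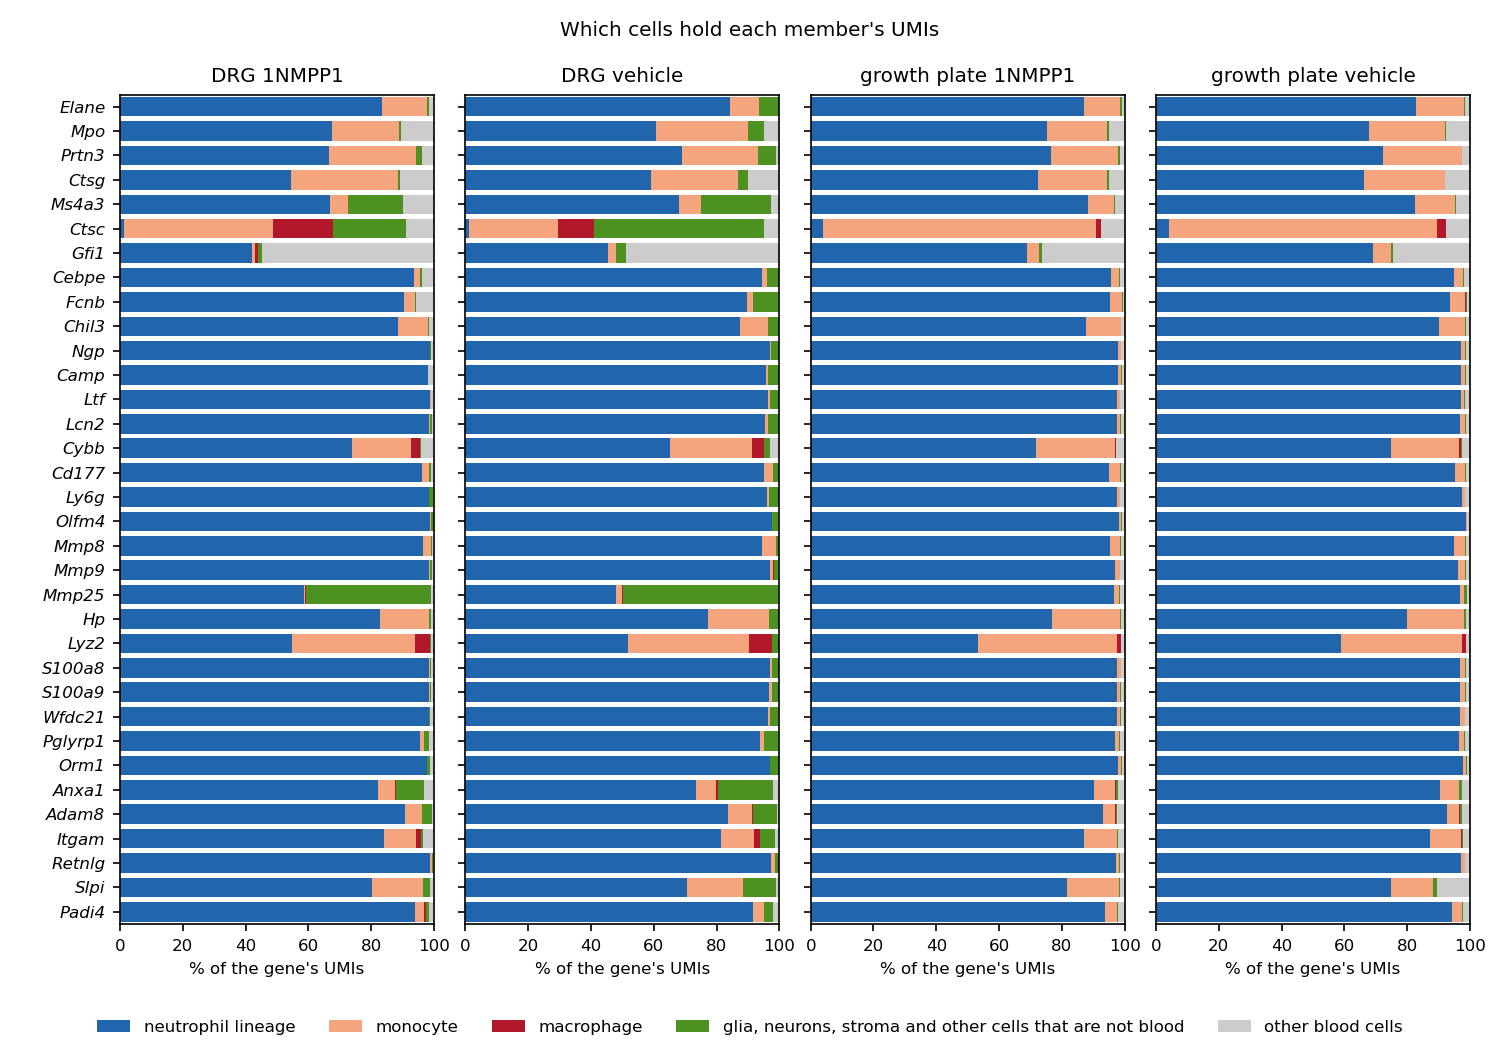
Share of each member's UMIs (x axis, percent) held by neutrophil lineage cells, monocytes, macrophages, cells that are not blood and other blood cells, with members down the page and 1 panel per library. Ctsc stands apart in all 4 panels, and Mmp25 has a large share in cells that are not blood in both DRG panels.

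Mmp25, a membrane-anchored metalloproteinase, had 58.7% and 48.0% of its UMIs in the lineage in 1NMPP1 and vehicle DRG and 96.7% in each growth plate library. Sensory neurons held 39.3% and 38.3% of its UMIs in 1NMPP1 and vehicle DRG, and 1 cluster of 30 of them was very deep, with a median of 205178 UMIs. By level, Mmp25 was lower in sensory neurons of 1NMPP1 DRG, at 40.8 CPM, than in neutrophils, at 177 CPM. In vehicle DRG neutrophils were the highest class, at 158 CPM, and the next class was at 31.2 CPM. Gfi1, a repressor needed for neutrophil formation, had 41.9% and 45.5% in the lineage in 1NMPP1 and vehicle DRG and 69.1% in each growth plate library, and DRG B cells held 43.0% and 44.6% with 1NMPP1 and vehicle. Lyz2, which encodes lysozyme and is shared by the myeloid lineages, had between 51.9% and 58.8% of its UMIs in the lineage, with most of the others in monocytes.

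The members are among the most abundant RNAs of these cells. They took 37.3% and 35.8% of all lineage UMIs in 1NMPP1 and vehicle DRG and 31.7% and 33.5% in 1NMPP1 and vehicle growth plate. S100a8 and S100a9 made up most of this, with 35.2% and 34.3% of member UMIs from S100a8 in 1NMPP1 and vehicle DRG, and 33.1% and 32.6% in 1NMPP1 and vehicle growth plate. Cells outside the lineage also held UMIs of S100a8. The source of these, such as RNA that is free in a droplet, was not tested. Of B cells, which should lack S100a8, 33.7% and 57.2% had at least 1 of its UMIs in 1NMPP1 and vehicle DRG, against 99.3% and 99.5% in 1NMPP1 and vehicle growth plate. With each cell thinned to 1000 UMIs these shares were 8.56% and 14.5% in 1NMPP1 and vehicle DRG and 80.0% and 74.0% in 1NMPP1 and vehicle growth plate. Median depths of the B cells were 4413.5 and 6275 UMIs in 1NMPP1 and vehicle DRG and 6726 and 5500.5 UMIs in 1NMPP1 and vehicle growth plate. B cells of both growth plate libraries thus carried these UMIs far more often than those of DRG, and low levels of primary granule genes in immature and mature cells are given below beside those of B cells.

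In the growth plate the members followed each other in an order that was close to the known order of the granules. The secondary and tertiary groups overlapped in it. Lineage cells of all 4 libraries were split into 16 sub-clusters without the member genes, and the 11 with at least 50 cells in both growth plate libraries were placed from least to most mature by progenitor and mature markers. The position of a member is the mean place in this order of 11, weighted by its CPM. Places differ from sub-cluster numbers, which run over all 16. Elane came first at 1.52, followed by Prtn3 and Ctsg at 1.54, Ms4a3, a membrane protein of myeloid progenitors, at 1.87, and Mpo at 2.08. Fcnb, which encodes ficolin B, was at 2.92 and Gfi1 at 2.94. The last were Mmp8 (neutrophil collagenase) at 7.40, Mmp9 (gelatinase B) at 7.61, Adam8, a membrane metalloproteinase, at 7.99, Slpi, which encodes an inhibitor of elastase, at 8.24, and Retnlg at 8.37.

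Between these ends stood the genes of the secondary group other than Fcnb and Mmp8. Chil3, a chitinase-like protein, was at 3.79, Camp, the cathelicidin, and Cebpe, the factor needed for secondary granules, both at 3.98, Ngp at 4.50, Ltf at 4.77 and Lcn2 at 5.08. S100a8 and S100a9, listed with the tertiary granule and mature stage genes, lay in the middle at 5.79 and 5.97. Anxa1 (5.27), Itgam (6.16), Mmp25 (6.61) and Padi4 (6.73) of that list also came before Mmp8. Secondary group genes such as Cd177 (5.34) and Ly6g (6.22) lay among them. Ctsc, listed as a primary granule gene, was late at 7.14, with few UMIs in the lineage. The ranks of the 34 genes in the 2 growth plate libraries had a Spearman rho of 0.993 (n = 34 genes over shared sub-clusters, a description). In both libraries 24 genes had the same rank, and Olfm4 differed most, by 5 ranks. Sub-cluster 5, placed with the cycling cells, was shallow, with a median of 1950.5 UMIs over 276 cells.

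**Figure D2:**
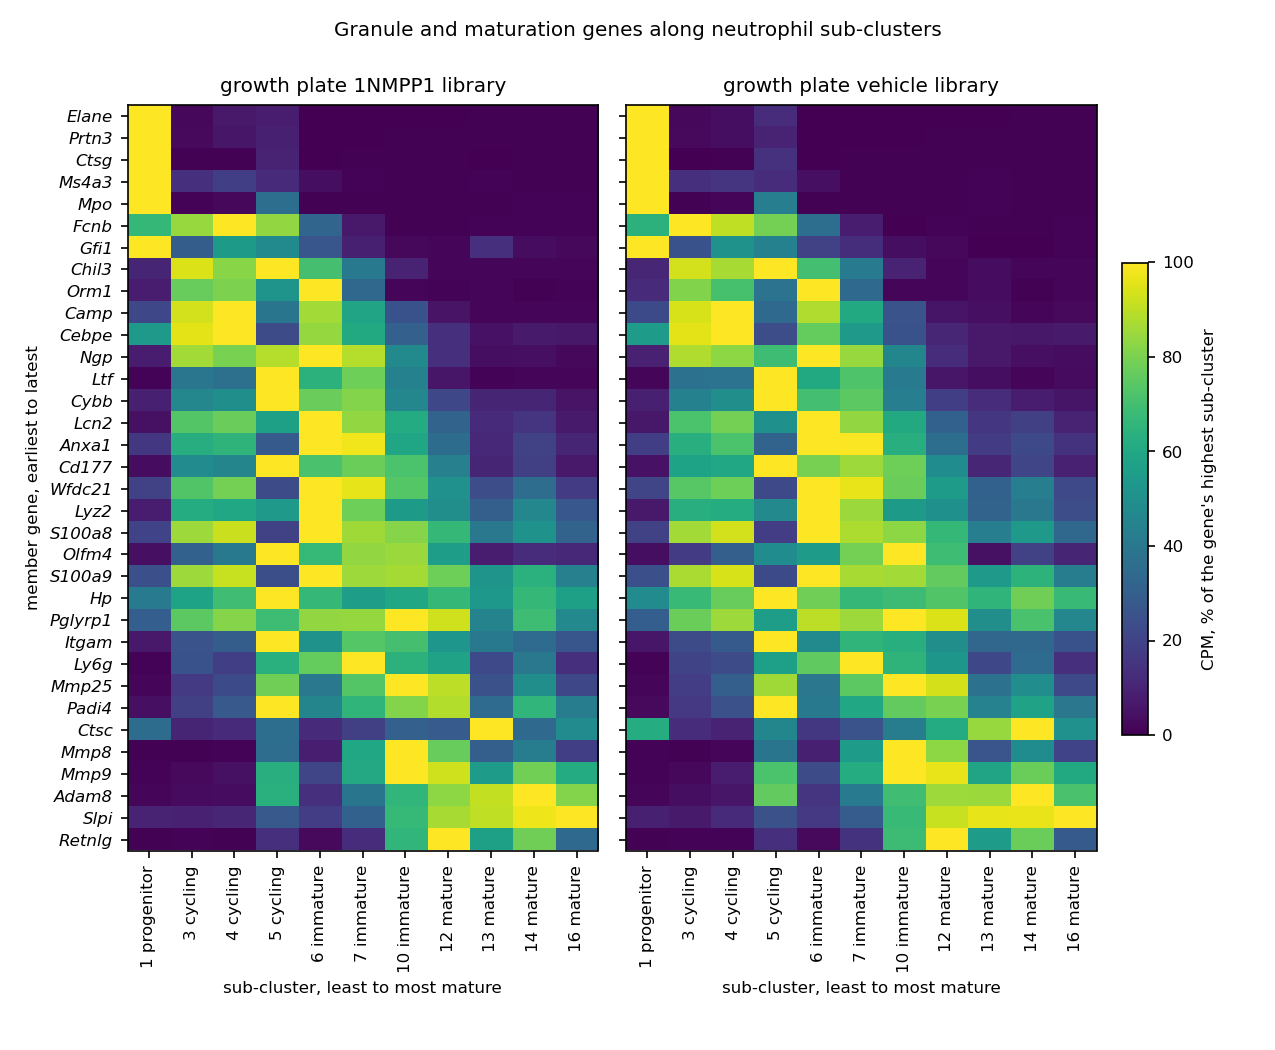
CPM of each member in the 11 growth plate sub-clusters, from least to most mature along the x axis, as a percent of the gene's highest sub-cluster in that library, with genes down the page by position and 1 panel per library. The bright cells step from Elane at the upper left to Retnlg at the lower right in both panels, and the shallow sub-cluster 5 departs from its neighbours for many genes.

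Most DRG neutrophils did not fall into these sub-clusters but formed their own, which held 393 of 483 and 288 of 376 lineage cells of the 1NMPP1 and vehicle DRG libraries. To compare like stages across tissues, each cell was therefore also placed in the progenitor, cycling, immature or mature stage by the likelihood of its counts of 42 stage markers, none of them a member, as learnt on growth plate cells. This staging was added after the data had been seen. It gave 12, 41, 181 and 249 progenitor, cycling, immature and mature cells in 1NMPP1 DRG, and 30, 35, 122 and 189 in vehicle DRG. It gave 341, 599, 2350 and 2802 in 1NMPP1 growth plate, and 307, 582, 1857 and 2062 in vehicle growth plate. It put 63.1% and 65.7% of cells of 1NMPP1 and vehicle DRG in the stage of their sub-cluster, against 89.98% and 88.78% in 1NMPP1 and vehicle growth plate. Progenitor cells were 2.48% (interval 1.29% to 4.30%) of the lineage in 1NMPP1 DRG and 7.98% (5.45% to 11.19%) in vehicle DRG, and 5.60% and 6.39% in 1NMPP1 and vehicle growth plate.

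By these stages the member genes had like profiles in both tissues. In 27 of 34 members the highest stage was the same in all 4 libraries, and the exceptions were Ctsc, Fcnb, Olfm4, Mmp8, Mmp25, Hp and Padi4. In vehicle growth plate, 6 members were highest in progenitor cells, 6 in cycling cells, 15 in immature cells and 7 in mature cells. At the stage with its highest mean over the 4 libraries, which for those 7 is not the highest in each library, the level of a member lay within 1.5-fold over all 4 libraries for 26 of 34 members. The highest of the 4 levels at that stage was a median of 1.25 times the lowest, and at most 2.41 times, for Ctsc in progenitor cells. The lowest of these Ctsc levels, 11.7 CPM in 1NMPP1 DRG, rests on only 3 UMIs.

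Elane, Prtn3, Mpo, Ctsg and Ms4a3, the primary granule genes other than Ctsc, were highest in progenitor cells of all 4 libraries. Elane had 14251 and 10356 CPM in progenitor cells of 1NMPP1 and vehicle DRG, and 10981 and 10456 CPM in those of 1NMPP1 and vehicle growth plate. Cycling cells, the next stage, had 531 and 703 CPM in 1NMPP1 and vehicle DRG and 517 and 593 CPM in 1NMPP1 and vehicle growth plate. Elane was thus far lower in cycling cells in all 4 libraries. Prtn3 had 9639 and 10015 CPM in progenitor cells of 1NMPP1 and vehicle DRG and 9355 and 10411 CPM in those of 1NMPP1 and vehicle growth plate. Mpo, which makes hypochlorous acid, had 8627 and 4291 CPM in progenitor cells of 1NMPP1 and vehicle DRG, and 5548 and 5316 CPM in those of 1NMPP1 and vehicle growth plate. The DRG levels rest on only 12 and 30 progenitor cells with 1NMPP1 and vehicle and are not ranked here. Ctsg had 2613 and 3636 CPM in progenitor cells of 1NMPP1 and vehicle DRG and 3648 and 4200 CPM in those of 1NMPP1 and vehicle growth plate. Ms4a3 had between 1297 and 1649 CPM and Gfi1 between 44.2 and 85.9 CPM in progenitor cells of the 4 libraries.

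Most secondary granule genes were highest in cycling or immature cells. The exceptions were Fcnb, highest in progenitor cells of 1NMPP1 DRG, Mmp8, highest in mature cells of both DRG libraries, and Hp, highest in mature cells of both growth plate libraries. Cebpe had 459 and 483 CPM in cycling cells of 1NMPP1 and vehicle DRG, and 574 and 583 CPM in those of 1NMPP1 and vehicle growth plate. Camp had 55981 and 58733 CPM in cycling cells of 1NMPP1 and vehicle DRG, and 56868 and 57489 CPM in those of 1NMPP1 and vehicle growth plate. These 4 Camp levels spanned 1.05-fold, the narrowest range of any member at the stage of its highest mean. Ltf had 12088 and 11299 CPM in immature cells of 1NMPP1 and vehicle DRG, and 11753 and 11766 CPM in those of 1NMPP1 and vehicle growth plate. In progenitor cells Ltf was far lower, at 129 and 39.2 CPM in 1NMPP1 and vehicle DRG and 197 and 226 CPM in 1NMPP1 and vehicle growth plate. Chil3 had 8783 and 8300 CPM in cycling cells of 1NMPP1 and vehicle DRG and 9053 and 7585 CPM in those of 1NMPP1 and vehicle growth plate. Cebpe, Camp and Chil3 were thus highest in cycling cells and Ltf in immature cells of both tissues. Ly6g, the surface protein used to gate mouse neutrophils, was highest in immature cells at 732 and 754 CPM in 1NMPP1 and vehicle DRG and 803 and 827 CPM in 1NMPP1 and vehicle growth plate. Cybb, the catalytic subunit of the oxidase that makes superoxide, had 2260 and 1815 CPM in immature cells of 1NMPP1 and vehicle DRG and 2181 and 2175 CPM in those of 1NMPP1 and vehicle growth plate. Cd177, a surface protein of secondary granules, Pglyrp1, which binds bacterial peptidoglycan, and Wfdc21, a whey acidic protein family member, were highest in immature cells of all 4 libraries, at 879.8 to 1316 CPM for Cd177, 2156 to 2365 CPM for Pglyrp1 and 5587 to 5993 CPM for Wfdc21. Hp, which encodes haptoglobin, was spread over all stages, with 703 to 1571 CPM over stages and libraries.

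Genes of the tertiary group divided into those highest in immature cells and those highest in mature cells. S100a9, the partner of S100a8, belonged to the immature kind, with 149221 and 163488 CPM in immature cells of 1NMPP1 and vehicle DRG and 137113 and 148011 CPM in those of 1NMPP1 and vehicle growth plate. Mmp25, Anxa1, which encodes the anti-inflammatory annexin A1, and Itgam, a subunit of the Mac-1 integrin, were also highest in immature cells of both growth plate libraries. Retnlg had 20757 and 24949 CPM in mature cells of 1NMPP1 and vehicle DRG, and 25575 and 26217 CPM in those of 1NMPP1 and vehicle growth plate. Mmp9 had 2977 and 2399 CPM in mature cells of 1NMPP1 and vehicle DRG, and 2917 and 2909 CPM in those of 1NMPP1 and vehicle growth plate. Slpi had 1810 and 1968 CPM in mature cells of 1NMPP1 and vehicle DRG and 1859 and 2109 CPM in those of 1NMPP1 and vehicle growth plate. Mmp8 was shared between both stages, with 1905 and 1636 CPM in immature and 2065 and 2180 CPM in mature cells of 1NMPP1 and vehicle DRG. In growth plate cells Mmp8 had 2573 and 2483 CPM in immature and 1881 and 2263 CPM in mature cells with 1NMPP1 and vehicle.

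**Figure D3:**
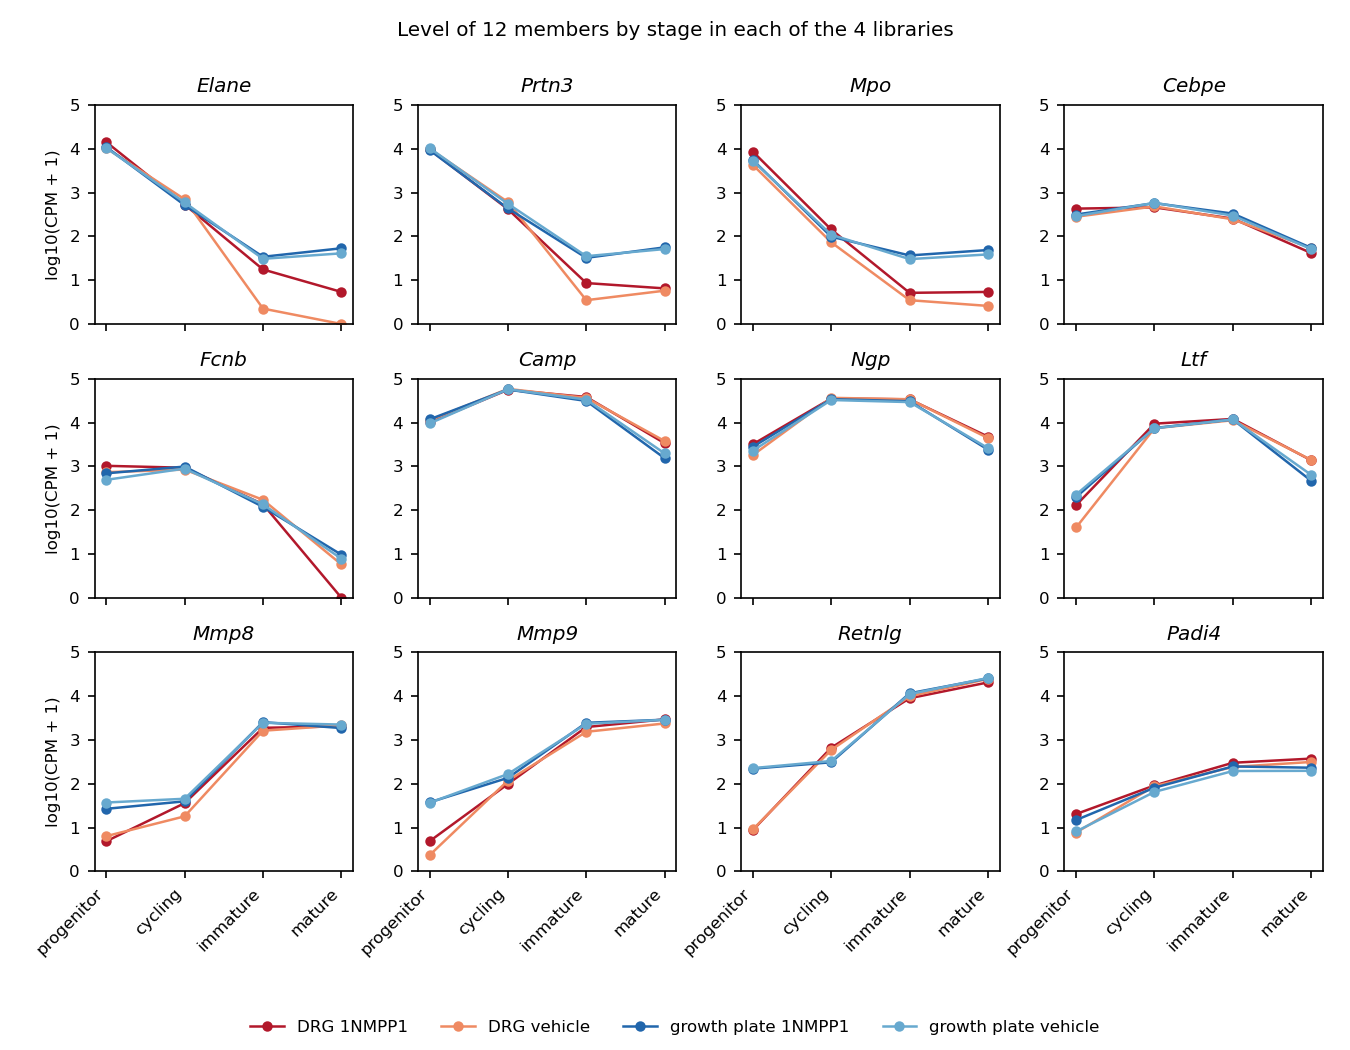
Level of 12 members, as log10(CPM + 1), in progenitor, cycling, immature and mature cells by marker likelihood, with 1 line per library. The lines run together at each gene's highest stage, and part at low levels, where growth plate lines for Elane, Prtn3 and Mpo stay above the DRG lines in immature and mature cells. These growth plate levels are near or below those of growth plate B cells with vehicle and above them with 1NMPP1.

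The 1NMPP1 and vehicle libraries were compared first in DRG, over all lineage cells. A member was counted as higher or lower past 1.5-fold where at least 100 UMIs stood behind it in both libraries together. In the 1NMPP1 library 2 of 32 measured members were higher (8.28% of 5798 genes were) and 4 were lower (8.19% of genes were), and Ctsc and Gfi1 had too few UMIs. The median log2 ratio of members was 0.12, against 0.06 over all genes. With 32 members, both counts were small and not far from these shares. Over the settings tried they ran from 1 to 12 higher and from 0 to 6 lower. Within male-called cells 5 were higher and 2 lower, and within female-called cells 12 were higher and 6 lower, both with few cells in at least 1 library.

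The 4 lower members were all primary granule genes. Ctsg was at 214 CPM with 1NMPP1 and 614 CPM with vehicle (log2 ratio -1.52, interval -1.65 to -1.40). Prtn3 was at 841 CPM with 1NMPP1 and 1791 CPM with vehicle (-1.09). Ms4a3 was at 145 CPM with 1NMPP1 and 277 CPM with vehicle (-0.93), and Elane at 1227 CPM with 1NMPP1 and 1864 CPM with vehicle (-0.60). Mpo, the remaining measured gene of that group, was at 703 CPM with 1NMPP1 and 733 CPM with vehicle (-0.06), but at 0.874 by sub-cluster stages and 1.01 by likelihood stages given equal weight in both libraries, at 1.39 in male-called and at -1.16 in female-called cells. Beside these values, progenitor cells were 12 of 483 with 1NMPP1 and 30 of 376 with vehicle. With that weighting, 1 member was lower by sub-cluster stages and 0 by likelihood stages, and Elane turned to 0.315 and 0.402. The 1 gene was Ctsg, at -0.60. For primary granule genes these weighted ratios rest mainly on the progenitor cells, 12 and 30 by likelihood and 11 and 23 by sub-clusters with 1NMPP1 and vehicle. Such few cells cannot decide if the lower levels remain within a stage. Within male-called cells Elane was at 0.792, Prtn3 at 0.386, Ctsg at 0.0318 and Ms4a3 at 0.386. Within female-called cells Elane was at -1.62, Prtn3 at -2.20, Ctsg at -2.87 and Ms4a3 at -1.92. Female-called cells were only 10.9% of the 376 vehicle cells, and male-called cells only 16.6% of the 483 cells with 1NMPP1. The ratios by sex call thus rest on few cells. In DRG monocytes, which also carry these RNAs, Ctsg was at 282 CPM with 1NMPP1 and 488 CPM with vehicle and Prtn3 at 737 CPM with 1NMPP1 and 1065 CPM with vehicle. In a tissue with so few progenitor cells, fewer cells with these RNAs and less RNA per cell give the same sum, and the progenitor cells themselves, under 50 in each library, were too few to compare.

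Adam8 and Orm1 were the higher members. Adam8 was at 489.9 CPM with 1NMPP1 and 271 CPM with vehicle over the lineage (log2 ratio 0.85, interval 0.74 to 0.96). The difference was present within stages, at 820.2 CPM with 1NMPP1 and 504 CPM with vehicle in mature cells (0.70), and at 550.1 CPM with 1NMPP1 and 311 CPM with vehicle in immature cells (0.82). It was 2.06 in female-called and 0.265 in male-called cells. Orm1, an acute-phase plasma protein, was at 126 CPM with 1NMPP1 and 83.6 CPM with vehicle (0.60). With the stages given equal weight Orm1 did not pass, at 0.105 by sub-cluster stages and 0.506 by likelihood stages. Mpo passed there, on values that rest mainly on few progenitor cells. Of the 50-base words at the 3′ end of Orm1, 32.6% are also in Orm2, so Orm1 counts are uncertain. Within mature cells Adam8 was the 1 higher of 25 measured members (6.83% of genes were higher), and Chil3 and Olfm4 were the 2 lower (2.79% of genes were lower). Chil3 was at 157 CPM with 1NMPP1 and 284 CPM with vehicle (-0.85), and Olfm4, which encodes olfactomedin 4 of specific granules, at 62.7 CPM with 1NMPP1 and 113 CPM with vehicle (-0.84). Within immature cells Adam8 was the 1 higher of 27 measured (5.86% of genes were), and 0 were lower (2.18% of genes were).

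Over all growth plate neutrophils no member passed 1.5-fold in the 1NMPP1 library. Of 34 measured members 0 were higher (2.53% of 11274 genes were) and 0 lower (1.16% of genes were). Within female-called cells Olfm4 (0.823) and Padi4 (0.637) were higher and Ctsc (-0.715) and Ctsg (-0.60) lower, and within male-called cells 0 were higher and Olfm4 (-0.881) was lower. The median log2 ratio was -0.03, against 0.03 over all genes, and the values ran from -0.18 for Ms4a3 to 0.35 for Padi4. Elane had 2142 CPM with 1NMPP1 and 2028 CPM with vehicle (0.08), Ngp 19988 CPM with 1NMPP1 and 20025 CPM with vehicle, and Retnlg 10066 CPM with 1NMPP1 and 9406 CPM with vehicle (0.10). Within cells of a stage, 2 of 33 members passed in progenitor cells, both higher (1.58% of genes were), which were Padi4 at 0.95 and Chil3 at 0.68, and 0 were lower (1.31% of genes were). In cycling cells 1 of 34 was higher (1.76% of genes were), which was Olfm4 at 0.97, and 0 were lower (0.749% of genes were). In immature cells 0 of 34 were higher (2.23% of genes were) and 0 lower (0.919% of genes were), and in mature cells 0 of 32 were higher (3.28% of genes were) and 0 lower (0.984% of genes were).

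Padi4, which encodes the enzyme that citrullinates histones when neutrophils release extracellular traps, had the highest ratio of the members there. It was at 163 CPM with 1NMPP1 and 128 CPM with vehicle (log2 ratio 0.35, interval 0.30 to 0.40), from 9028 and 5312 UMIs. Its ratio was above 0 in each of the 4 stages, from 0.24 to 0.95, and at 0.202 in male-called and 0.637 in female-called cells. The stages are parts of the same libraries and give no separate support. The 0.95 was in progenitor cells, at 14.0 CPM with 1NMPP1 and 7.21 CPM with vehicle. Cd177 was also above 0 in each stage, and Ctsg, Ms4a3, Hp, Anxa1 and Slpi were below 0 in each. In DRG Padi4 was at 258 CPM with 1NMPP1 and 196 CPM with vehicle (0.40), with -0.131 in male-called and 0.76 in female-called cells. Olfm4 was at 118 CPM with 1NMPP1 and 94.5 CPM with vehicle in the growth plate (0.32). Its ratio had opposite signs by sex call, at -0.881 in male-called and 0.823 in female-called cells of the same libraries. Of the 50-base words at the 3′ end of Olfm4, 4.21% are also in an overlapping gene model.

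**Figure D4:**
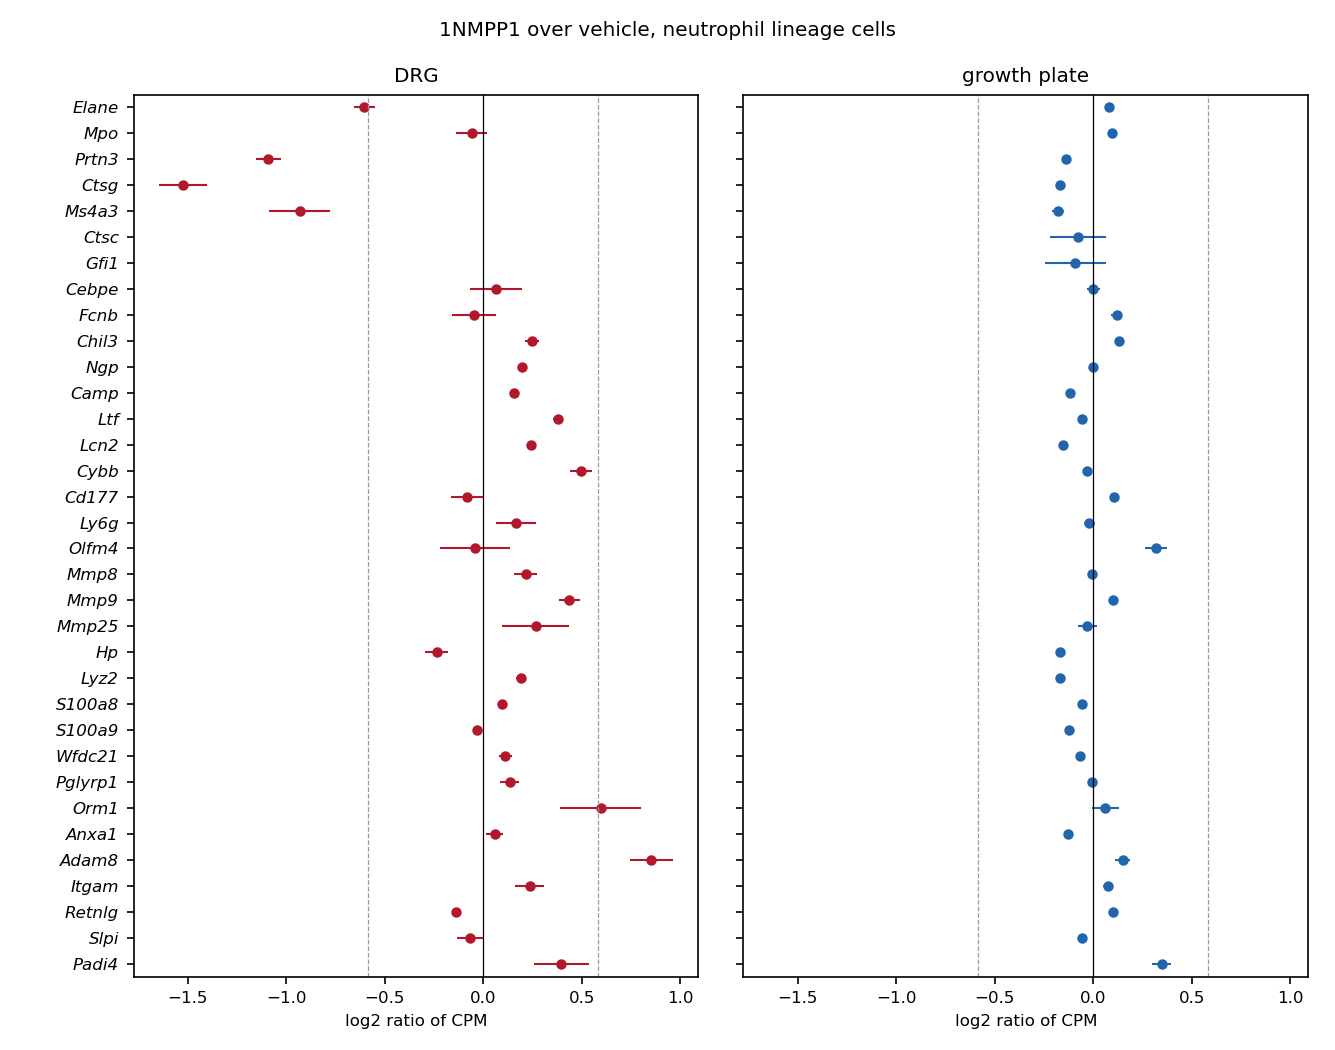
Log2 ratio of CPM, 1NMPP1 over vehicle, of each measured member in neutrophil lineage cells of DRG (left) and growth plate (right), with 95% intervals for counting error and dashed lines at 1.5-fold. Ctsg, Prtn3, Ms4a3 and Elane lie left of the dashed line in DRG, and all growth plate points lie between the lines.

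DRG neutrophils were then compared with growth plate neutrophils at the same treatment. Tissue, the way cells were released and the library cannot be told apart in this comparison, and the 2 comparisons of tissues share their libraries with those of 1NMPP1. Over all lineage cells of the 1NMPP1 libraries, 3 of 34 members were higher in DRG (7.79% of 10483 genes were) and 5 lower (19.8% of genes were). The higher ones were Adam8 (0.84), Orm1 (0.68) and Padi4 (0.66), and the lower ones Ctsg (-1.67), Ms4a3 (-1.18), Prtn3 (-1.12), Elane (-0.80) and Ctsc (-0.77). In the vehicle libraries 1 of 34 was higher in DRG (5.75% of 9956 genes were) and 0 were lower (14.2% of genes were). That gene was Padi4, at 196 CPM in vehicle DRG and 128 CPM in vehicle growth plate (0.61, interval 0.51 to 0.72). Members' medians were 0.14 with 1NMPP1 and -0.09 with vehicle, against -0.17 and -0.20 over all genes. Over the whole lineage the members' counts were thus near or below those of all genes in both pairs. With the stages given equal weight by sub-clusters and by likelihood, the 1NMPP1 values turned to 0.265 and 0.345 for Elane, -0.0536 and 0.0224 for Prtn3 and -0.208 and -0.214 for Ms4a3, and Padi4 no longer passed, at 0.358 and 0.411 with 1NMPP1 and 0.367 and 0.452 with vehicle. For Elane, Prtn3 and Ms4a3 these values rest mainly on the few progenitor cells of 1NMPP1 DRG, 11 by sub-clusters and 12 by likelihood. Within male-called cells of the 1NMPP1 libraries 1 was higher, Orm1 (1.01), and 1 lower, Ctsc (-1.54), with Elane at 0.37, Prtn3 at 0.0591, Ms4a3 at -0.143 and Ctsg at -0.461. Within female-called cells 4 were higher and 5 lower. Within male-called cells of the vehicle libraries 1 was higher and 1 lower, and within female-called cells 2 were higher and 0 lower. With each cell weighing alike, 0 members were higher in DRG with either treatment, and 6 were lower with 1NMPP1 and 3 with vehicle.

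Within mature cells, several secondary granule genes had higher levels in DRG neutrophils. In the 1NMPP1 libraries 5 of 32 measured members were higher in DRG (8.61% of genes were) and 7 lower (17% of genes were), and in the vehicle libraries 6 of 30 were higher (4.93% of genes were) and 5 lower (15.2% of genes were). Ngp, Camp, Ltf and Padi4 were higher in both pairs. Ltf was at 1372 CPM in mature cells of 1NMPP1 DRG and 466 CPM in those of 1NMPP1 growth plate (log2 ratio 1.56, interval 1.47 to 1.65), and at 1397 CPM in vehicle DRG and 637 CPM in vehicle growth plate (1.13, 1.06 to 1.21). Camp was at 3374 CPM in 1NMPP1 DRG and 1532 CPM in 1NMPP1 growth plate (1.14), and at 3781 CPM in vehicle DRG and 1973 CPM in vehicle growth plate (0.94). Ngp was at 4772 CPM in 1NMPP1 DRG and 2409 CPM in 1NMPP1 growth plate (0.99), and at 4437 CPM in vehicle DRG and 2614 CPM in vehicle growth plate (0.76). All 3 were thus higher in DRG cells whose other markers placed them in the mature stage. Maturity within that stage was not matched. The sub-cluster of most DRG neutrophils had a log2 ratio of summed mature to progenitor markers of 6.90. That value also covers cells outside the mature stage by likelihood. Of DRG cells in mature sub-clusters, 59.1% and 60.5% with 1NMPP1 and vehicle were mature by likelihood. The mature sub-clusters 12 to 16 had 7.21 to 7.85, and mature sub-cluster 9, with 108 cells, had 5.77. The part of maturity in the difference was not tested. Padi4 was at 377 CPM in 1NMPP1 DRG and 233 CPM in 1NMPP1 growth plate (0.70), and at 316 CPM in vehicle DRG and 198 CPM in vehicle growth plate (0.68). Cybb passed with 1NMPP1 (0.66) and was at 0.56 with vehicle, while Chil3 (0.94) and Olfm4 (0.73) passed with vehicle. With 1NMPP1, Chil3 was at 0.10, and Olfm4 at 62.7 CPM in DRG and 63.4 CPM in growth plate. The shares of higher members were above those of all genes in both pairs, and the shares of lower members were near them.

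Levels in B cells, whose source was not tested, were lower in DRG than in growth plate for Ltf in both pairs. For Camp they were lower in DRG with vehicle and higher in DRG with 1NMPP1. Ltf in B cells was at 42.8 CPM in 1NMPP1 DRG and 118 CPM in 1NMPP1 growth plate, and at 9.15 CPM in vehicle DRG and 134 CPM in vehicle growth plate. Ltf in mature cells was over that level in each library. Camp in B cells was at 877 CPM in 1NMPP1 DRG and 410.3 CPM in 1NMPP1 growth plate. With vehicle it was at 30.6 CPM in DRG and 498 CPM in growth plate. In 1NMPP1 DRG only 10.9% of B cells had a UMI of Camp, so that level rests on few B cells. By sub-cluster stages, which put most DRG cells in the mature stage, 14 of 33 members were higher and 6 lower in DRG with 1NMPP1 (11.2% and 24.6% of genes were), and 15 of 33 higher and 8 lower with vehicle (8.48% and 25.3% of genes were). Ltf was then at 3.29 with 1NMPP1 and 2.79 with vehicle. Mature cells also differed in other lists. The summed level of 10 immediate early genes was 7727 CPM in 1NMPP1 DRG and 12160 CPM in 1NMPP1 growth plate, and 6453 CPM in vehicle DRG and 10668 CPM in vehicle growth plate. That of 7 sensory neuron markers was 156 CPM in 1NMPP1 DRG and 1.5 CPM in 1NMPP1 growth plate, and 241 CPM in vehicle DRG and 0.832 CPM in vehicle growth plate. Mitochondrial genes summed to 7106 CPM in 1NMPP1 DRG and 3151 CPM in 1NMPP1 growth plate, and to 7924 CPM in vehicle DRG and 3069 CPM in vehicle growth plate. Hemoglobin genes summed to 3408 CPM in 1NMPP1 DRG and 1048 CPM in 1NMPP1 growth plate, and to 6838 CPM in vehicle DRG and 393 CPM in vehicle growth plate. All but the immediate early genes were thus higher in mature cells of DRG, and the part of these lists in the difference was not tested.

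Primary granule genes were lower in mature DRG cells. In mature growth plate cells Elane, Prtn3, Mpo and Ctsg were low, near B cells with vehicle and above B cells with 1NMPP1. Elane had 4.40 CPM in mature cells of 1NMPP1 DRG and 52.6 CPM in those of 1NMPP1 growth plate (log2 ratio -3.41). In vehicle DRG it had 0 UMIs in mature cells, against 40.1 CPM and 337 UMIs in vehicle growth plate, so it was at least 16.8-fold lower, taking 3 UMIs over all mature cells of vehicle DRG as the limit of detection. B cells of the growth plate had 25.0 CPM of Elane with 1NMPP1 and 41.7 CPM with vehicle. Prtn3 was at -3.19 with 1NMPP1 and -3.29 with vehicle, and growth plate B cells had 26.0 and 48.2 CPM of it with 1NMPP1 and vehicle, against 55.3 and 50.4 CPM in mature cells of those libraries. Mpo was at -3.27 with 1NMPP1 and -4.25 with vehicle, and Ctsg at -2.48 with 1NMPP1 and -3.47 with vehicle. Growth plate B cells had 23.1 and 37.8 CPM of Mpo with 1NMPP1 and vehicle, against 47.8 and 37.8 CPM in mature cells, and 10.0 and 23.3 CPM of Ctsg, against 21.5 and 22.0 CPM in mature cells. In vehicle growth plate, the levels of Elane, Mpo, Prtn3 and Ctsg in mature cells were near those of B cells, so they are not read as expression. The source of these UMIs was not tested. With 1NMPP1, Ms4a3 and Fcnb had 0 UMIs in mature DRG cells and were at least 3.14-fold and 2.61-fold lower than in growth plate, where mature cells had 10.3 and 8.60 CPM of them and B cells 5.10 and 4.84 CPM. Ctsc was at -0.80 with 1NMPP1 and -1.04 with vehicle, and its level in mature cells was below that in B cells in all 4 libraries.

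**Figure D5:**
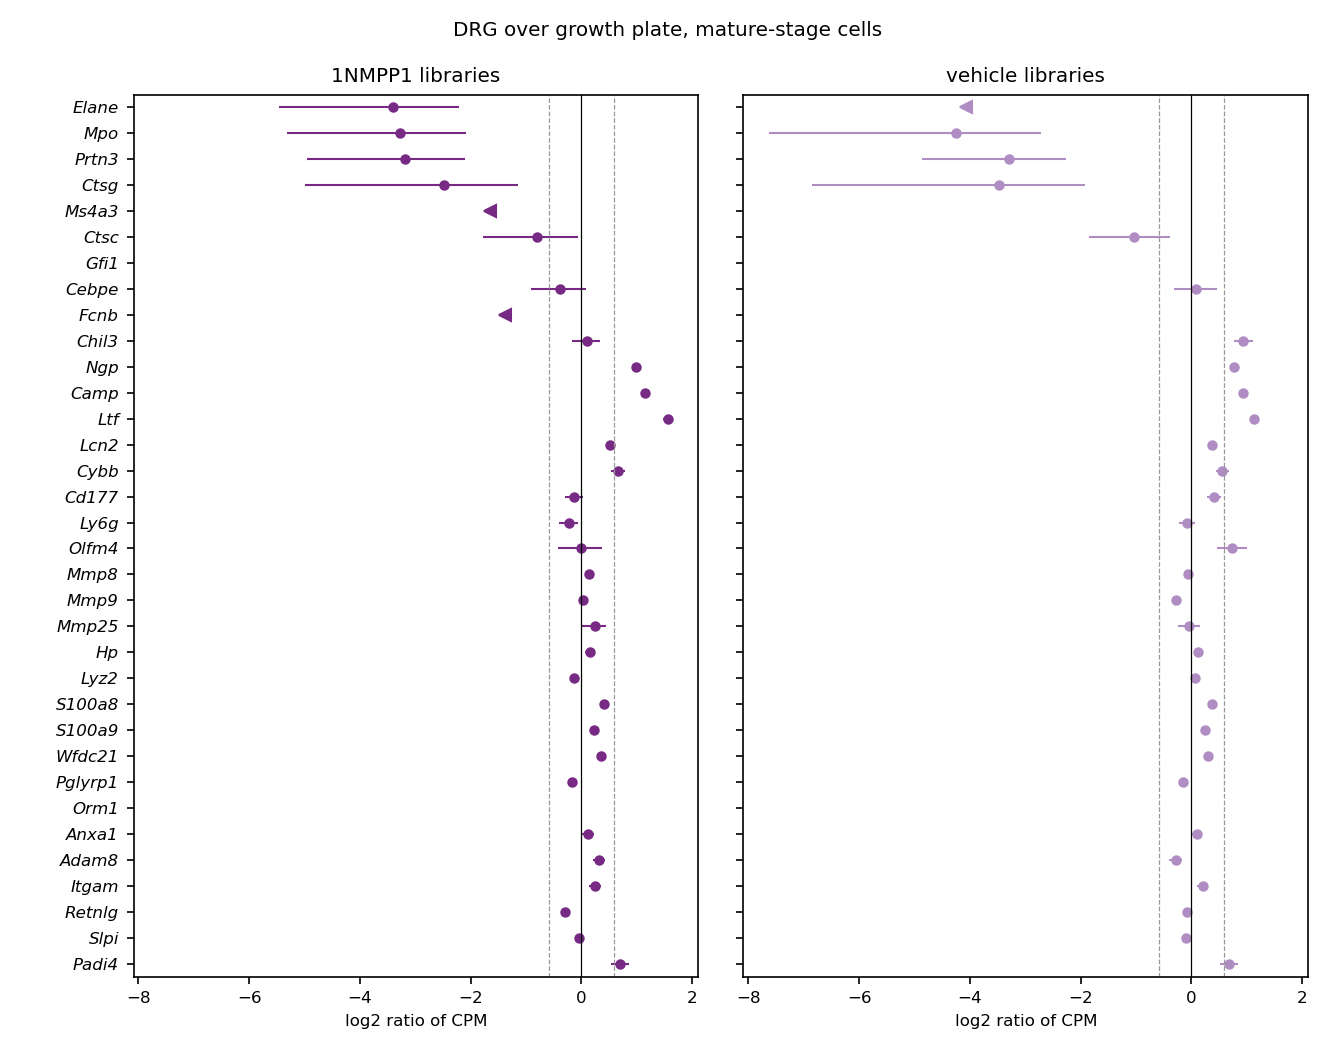
Log2 ratio of CPM, DRG over growth plate, of each measured member in mature-stage cells of the 1NMPP1 libraries (left) and the vehicle libraries (right), with 95% intervals for counting error and dashed lines at 1.5-fold. A left-pointing triangle is a member with 0 UMIs in DRG, drawn at the limit that 3 UMIs give. Elane, Mpo, Prtn3 and Ctsg lie far to the left in both panels, and Ngp, Camp and Ltf lie right of the dashed line in both.

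In immature cells no secondary granule gene was higher in DRG past 1.5-fold. The primary granule genes that were lower in DRG were low in the growth plate, below B cells with vehicle and above B cells with 1NMPP1. In the 1NMPP1 libraries 1 of 33 measured members was higher in DRG (5.92% of genes were), which was Adam8 at 0.75, and 4 were lower (18.2% of genes were), which were Elane, Mpo, Prtn3 and Ctsg. Immature cells of 1NMPP1 and vehicle growth plate had 33.2 and 29.8 CPM of Elane, 35.7 and 29.3 CPM of Mpo, 31.4 and 34.3 CPM of Prtn3 and 16.8 and 17.4 CPM of Ctsg. In vehicle growth plate all 4 were below their levels in B cells, so they are not read as expression. In 1NMPP1 growth plate they were above them by less than the B cell levels themselves. The source of these UMIs was not tested. In the vehicle libraries 0 of 33 were higher (4.37% of genes were) and 6 lower (19.2% of genes were), which were the same 4 with Mmp8 (-0.60) and Mmp9 (-0.61). Camp in immature cells was at 38346 CPM in 1NMPP1 DRG and 31104 CPM in 1NMPP1 growth plate, and at 36537 CPM in vehicle DRG and 33449 CPM in vehicle growth plate. Lcn2 was at 14507 CPM in 1NMPP1 DRG and 12132 CPM in 1NMPP1 growth plate, and at 14603 CPM in vehicle DRG and 13149 CPM in vehicle growth plate. Neither passed 1.5-fold in that stage.

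Other genes of granules and granulopoiesis were read from 4 lists over all lineage cells. Their counts stand beside the shares over all genes, which were 8.28% higher and 8.19% lower with 1NMPP1 over vehicle in DRG and 2.53% higher and 1.16% lower in the growth plate, and 7.79% higher and 19.8% lower in DRG over growth plate with 1NMPP1 and 5.75% higher and 14.2% lower with vehicle. Of 23 other granule and oxidase genes, 0 passed in either direction in growth plate cells with 1NMPP1 over vehicle, of 22 measured, with Fpr1, a receptor for bacterial formyl peptides, at 0.34 and Lyz1 at 0.29 highest and Ncf4 (-0.14) and Cyba (-0.09), both oxidase subunits, lowest. In DRG with 1NMPP1 over vehicle 0 of 21 were higher and 1 lower, with Gusb at 0.57 and Alox5 at 0.45 highest and Ctsz at -0.72 and Srgn, the proteoglycan that binds granule proteases, at -0.36 lowest. In DRG over growth plate with 1NMPP1, 1 of 22 was higher and 0 lower, with Fpr1 at 0.94 highest and Lyz1 at -0.54 and Lamp2 at -0.42 lowest. With vehicle 0 of 22 were lower, with Fpr1 at 0.95 among the higher and Alox5 at -0.37 and Hexa at -0.25 lowest. Fpr1 was at 273 CPM in 1NMPP1 DRG and 143 CPM in 1NMPP1 growth plate, and at 218 CPM in vehicle DRG and 113 CPM in vehicle growth plate.

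Of 13 genes of granule traffic and release, 0 of 13 passed in growth plate cells with 1NMPP1 over vehicle, from Stx3 (0.23) and Nbeal2 (0.22) to Jagn1 (-0.17) and Lyst (-0.03). In DRG with 1NMPP1 over vehicle 3 of 10 were higher and 0 lower. Unc13d, which primes granules for fusion, was at 58.3 CPM with 1NMPP1 and 29.0 CPM with vehicle (1.01), Nbeal2, needed for platelet granules, at 92.0 CPM with 1NMPP1 and 48.0 CPM with vehicle (0.94), and Stxbp2 was at 0.63, while Snap23 (-0.27) and Vamp8 (-0.14) were lowest. In DRG over growth plate with 1NMPP1, 2 of 13 were higher, Nbeal2 (0.69) and Stxbp2 (0.68), and 1 was lower, Jagn1 (-1.23), with Vps13b next at -0.43. With vehicle 1 of 13 was higher, Stx3 (0.96), with Snap23 next at 0.37, and 1 was lower, Jagn1 (-0.61), with Vps13b next at -0.44. Jagn1, which is needed for neutrophils to form granules in human and mouse, was measured from only 10 UMIs in 1NMPP1 DRG and 24 in vehicle DRG.

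Of 14 granulopoiesis transcription factors, 1 of 13 was higher in growth plate cells with 1NMPP1 over vehicle, Lef1, at 2.25 CPM with 1NMPP1 and 1.08 CPM with vehicle (1.05), with Zfp36 next at 0.43 and Ets1 (-0.17) and Runx1 (-0.01) lowest. Lef1 is also a leading gene of 1 cluster of B cells, and the part of such cells in its few UMIs was not tested. In DRG with 1NMPP1 over vehicle 1 of 9 was higher, Zfp36 at 0.60, with Klf5 next at 0.58 and Cebpd (0.08) and Bcl6 (0.10) lowest. In DRG over growth plate with 1NMPP1, 2 of 13 were higher, Zfp36 (1.12) and Cebpb (1.04), and 3 lower, which were Lef1, with 0 UMIs in DRG, Irf8, a factor of monocytes and dendritic cells, at -2.44, and Cebpa at -0.62. The 3 lower of 13 are near the share over all genes. With vehicle 2 of 12 were higher, Zfp36 (0.94) and Cebpb (0.87), and 1 was lower, Irf8 at -2.86, with Runx1 next at -0.55. Cebpb, the factor of emergency granulopoiesis, was at 1286 CPM in 1NMPP1 DRG and 627 CPM in 1NMPP1 growth plate, and at 1089 CPM in vehicle DRG and 596 CPM in vehicle growth plate.

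Of 9 protease inhibitors, 0 of 7 passed in growth plate cells with 1NMPP1 over vehicle, from Cstb (0.25) and Serpinb2 (0.15) to Serpinb1a (-0.17), an inhibitor of elastase and cathepsin G, and Cst7, with 45.4 CPM with 1NMPP1 and 45.5 CPM with vehicle. In DRG with 1NMPP1 over vehicle 0 of 6 were higher and 1 lower. Cst7, which encodes cystatin F, an inhibitor of the cathepsin that activates granule proteases, was at 10.3 CPM with 1NMPP1 and 30.1 CPM with vehicle (-1.53), with Cstb next at -0.36 and Serpinb6a (0.07) and Serpinb1a (-0.05) highest. In DRG over growth plate 0 of 7 were higher and 1 lower with each treatment, which was Cst7, at -2.12 with 1NMPP1 and -0.59 with vehicle. With 1NMPP1, Cstb was next at -0.32, and Serpinb2 (0.39) and Serpinb6a (0.16) were highest. With vehicle, Serpinb1a was next at -0.38, and Serpinb2 (0.46) and Cstb (0.30) were highest.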

How the data were processed

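Deposited values are raw UMI counts of genes in cell barcodes. Per the file headers they come from Cell Ranger 7.2.0, and per the submitters' processing notes the genome was mm10. The annotation release was not given in the sources used here. Added features that are no mouse genes were left out. The members and lists were chosen with earlier results of these data known.

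A barcode was kept with 200 or more genes and no more than 20% of UMIs mitochondrial, and Scrublet's highest scores were removed at 0.8% per 1000 barcodes, since its own threshold marked only 1 to 30 barcodes per library. This left 2146 and 2830 cells of 1NMPP1 and vehicle DRG and 10519 and 8649 of 1NMPP1 and vehicle growth plate. All 4 libraries were clustered together without the members (2000 variable genes, 30 components, 20 neighbours, Leiden resolution 1) with Scanpy 1.11.5 and leidenalg 0.10.2, and classes were named from fixed markers. Counts were summed per library and class or stage. Log2 ratios have 0.5 UMI added to each sum and exact conditional intervals. All 34 members are named, and of each other list the 2 highest and the 2 lowest with at least 100 UMIs, except 1 gene that is not reported here. Tested on simulated counts with 100 genes changed 2-fold in each direction, the 1.5-fold rule found 98 higher and 98 lower among 5798 genes for 1NMPP1 over vehicle in DRG, and 98 higher and 88 lower among 10483 genes for DRG over growth plate with 1NMPP1. It also called 44 (0.786%) and 549 (5.34%) of the unchanged genes in these comparisons and 310 (3.18%) for DRG over growth plate with vehicle. The simulated counts held counting error only, so these rates leave out differences between animals and libraries. Alternatives covered filters, doublets, thinning, weighting, scaling, stage makeup and cells called male or female.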

Additional observations from a re-analysis of the deposited data

How the results depend on the processing

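No paired analysis was possible because each group has 1 library and the labels give no replicate numbers. Settings below changed 1 choice at a time, and the cause of each move was not tested. For 1NMPP1 over vehicle in DRG, the median log2 ratio of members was 0.123 and moved to 0.0699 with no cells removed as doublets, 0.0399 with cells thinned to 1000 UMIs, 0.0491 with each cell weighing alike, 0.0599 with the stage makeup standardized by sub-clusters, 0.0521 by marker likelihood and 0.384 in female-called cells. The 2 higher members became 1 without doublet removal, 1 with each cell weighing alike, 5 in male-called and 12 in female-called cells. The 4 lower members became 1 and 0 with stage makeup standardized by sub-clusters and by likelihood, and 2 in male-called cells. Elane reversed to 0.315 and 0.402 in those standardized settings and to 0.792 in male-called cells, where Prtn3 (0.386), Ctsg (0.0318) and Ms4a3 (0.386) also reversed. The standardized values of these genes, here and for the tissues below, rest mainly on few DRG progenitor cells.

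For 1NMPP1 over vehicle in the growth plate, the median of -0.025 moved to 0.0109 with at least 500 genes per cell, -0.0535 with thinning, -0.0502 with each cell weighing alike, -0.0625 with CPM over genes that are no members and 0.0232 in female-called cells. Members past 1.5-fold there were 1 lower in male-called cells, and 2 higher and 2 lower in female-called cells.

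For DRG over growth plate with 1NMPP1, the median of 0.139 moved to -0.0295 with thinning, -0.0762 with each cell weighing alike, 0.262 with CPM over other genes, 0.284 in male-called and 0.26 in female-called cells. Higher members were 1 with thinning, 0 with each cell weighing alike and 1 in male-called cells, and lower members 3 and 1 with the stage makeup standardized by sub-clusters and by likelihood and 1 in male-called cells. Ctsc reversed to 0.208 with thinning, Elane to 0.265 and 0.345 in the standardized settings and 0.37 in male-called cells, and Prtn3 to 0.0224 by likelihood and 0.0591 in male-called cells. With vehicle, the median of -0.0913 moved to -0.143 with thinning, -0.211 with each cell weighing alike and 0.0412 with the stage makeup standardized by sub-clusters. Counts there were 2 higher and 1 lower with members allowed in the clustering, 0 higher and 3 lower with each cell weighing alike, 2 higher with CPM over other genes, 3 lower with sub-cluster stages standardized, 1 lower in male-called and 2 higher in female-called cells.

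The share of lineage cells in progenitor and cycling sub-clusters was 9.73% in 1NMPP1 DRG (17.5% in male-called and 20.2% in female-called cells) and 14.6% in vehicle DRG (29.3% in female-called cells). It was 15.9% in 1NMPP1 growth plate, with 18.4% at 500 genes, 16.9% at 10% mitochondrial UMIs, 17.9% with members in the clustering and 33% in female-called cells. In vehicle growth plate it was 19.1%, with 22.4% at 500 genes, 21.3% with members in the clustering, 20.3% in male-called and 38.6% in female-called cells. Sex calls need UMIs of a few genes and so favour deep cells. With 376 to 483 lineage cells in DRG, progenitor cells there are too few to compare.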

Other observations

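Monocytes carried some member RNAs in all 4 libraries. Prtn3 was at 737 and 1065 CPM in monocytes of 1NMPP1 and vehicle DRG and at 1059 and 1474 CPM in those of 1NMPP1 and vehicle growth plate, and Elane at 437 and 359 CPM in 1NMPP1 and vehicle DRG and 589 and 796 CPM in 1NMPP1 and vehicle growth plate. Lyz2 was at 13037 and 9591 CPM in monocytes of 1NMPP1 and vehicle DRG and 10674 and 9756 CPM in those of 1NMPP1 and vehicle growth plate.

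Interferon response markers, a list of 7 genes, summed to 1904 CPM in mature neutrophils of 1NMPP1 DRG and 731 CPM in those of vehicle DRG, and to 1275 CPM in 1NMPP1 growth plate and 929 CPM in vehicle growth plate. Hemoglobin genes summed to 2383 CPM in lineage cells of 1NMPP1 DRG and 7583 CPM in those of vehicle DRG, and to 358 CPM in 1NMPP1 growth plate and 212 CPM in vehicle growth plate.

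Counts of members that share 3′ ends with other genes are uncertain. Of the 50-base words in the last 500 bases, Orm1 shares 32.6% with Orm2, Itgam 30.1% with an overlapping gene model, Chil3 17.8% with Chil4, Lyz2 16.9% with Lyz1 and Cd177 11.4% with a gene model.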
